A study of Sus scrofa with 27 samples.

Results

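The endothelial adhesion molecules that catch leukocytes, and the leukocyte integrins that bind them, were followed in pig lung tissue during ex vivo lung perfusion (EVLP), in which an explanted lung is ventilated and perfused outside the body. The members considered were 9 genes: the selectins SELE and SELP, the immunoglobulin-family molecules ICAM1, ICAM2, VCAM1 and PECAM1, and the integrin chains ITGB2, ITGAM and ITGAL. They were taken by gene name from a table of read counts for 31908 genes, of which 16719 carry a name, and had to reach 10 counts in at least 1 library. By name, 8 of the 9 were found, and all 8 passed, with their lowest count in any library at 24 (SELP). No row carries the name SELE. The row described in the table as selectin E, whose NCBI gene number 397508 belongs to SELE in RefSeq, was analysed beside the 8 and is never included in their counts.

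Lungs came from Large-White pigs, as donors whose hearts had stopped, and went through 1h of cold ischemia and 12h of EVLP with Steen solution containing methylprednisolone, cefuroxime and heparin. In the Gold Standard (GS) group of 5 pigs, numbered 9, 17, 44, 55 and 77, part of the perfusate was exchanged every 2h. In the Pediatric Dialysis (PD) group of 4 pigs, numbered 2, 3, 4 and 5, the circuit was instead dialysed continuously through a membrane made for children. Each lung was biopsied at 0h, before perfusion, and at 6h and 12h, which gives 27 libraries of poly(A) RNA. The perfusate was acellular. The study's drawing of the circuit with dialysis includes a filter that removes leukocytes from the perfusate ahead of the lung. A biopsy mixes all lung cell types.

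Leukocytes leave the blood in steps. Selectins on activated endothelium bind carbohydrate ligands and make leukocytes roll, integrins on the leukocyte then bind ICAM and VCAM molecules and arrest the cell, and PECAM1 at endothelial junctions takes part in its passage through the vessel wall. SELP is stored ready-made in endothelial granules and platelets, whereas SELE and VCAM1 are made mainly after stimulation by cytokines, and ICAM1 and ICAM2 are also present on resting endothelium. In the endothelium of several species the transcription factor NF-kB is a known driver of SELE, ICAM1 and VCAM1.

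The promoters of SELE, ICAM1 and VCAM1, the cytokine-inducible members, are shown with that of ITGAL, the member whose mRNA fell in both groups, because most of the results concern these genes. Each runs 5′ to 3′ on the gene's strand from 250 bases before to 30 bases from the first base of a RefSeq transcript, in assembly Sscrofa11.1, and capitals mark every match to GGNNNTTCC, the letters of an NF-kB-like site, on either strand. The windows are chr4:81288923-81289202 (plus strand), chr2:69096886-69097165 (plus), chr4:117511182-117511461 (minus) and chr3:17857864-17858143 (minus).
SELE: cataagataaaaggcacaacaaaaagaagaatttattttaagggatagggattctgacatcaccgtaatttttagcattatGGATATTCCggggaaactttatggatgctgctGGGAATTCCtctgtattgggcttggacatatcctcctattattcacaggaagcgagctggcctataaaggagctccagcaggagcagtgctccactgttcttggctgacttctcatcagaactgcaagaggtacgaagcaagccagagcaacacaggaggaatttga
ICAM1: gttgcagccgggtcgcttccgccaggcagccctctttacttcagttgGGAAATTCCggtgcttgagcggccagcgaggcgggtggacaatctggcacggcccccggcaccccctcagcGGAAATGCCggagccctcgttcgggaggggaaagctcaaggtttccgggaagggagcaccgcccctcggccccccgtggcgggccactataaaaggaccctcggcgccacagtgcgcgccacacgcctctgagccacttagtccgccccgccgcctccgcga
VCAM1: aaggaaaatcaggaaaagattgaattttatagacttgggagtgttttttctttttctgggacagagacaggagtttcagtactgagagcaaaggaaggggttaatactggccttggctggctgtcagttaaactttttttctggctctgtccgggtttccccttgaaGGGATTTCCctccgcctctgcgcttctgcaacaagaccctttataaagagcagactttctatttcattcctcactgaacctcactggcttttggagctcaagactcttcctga
ITGAL: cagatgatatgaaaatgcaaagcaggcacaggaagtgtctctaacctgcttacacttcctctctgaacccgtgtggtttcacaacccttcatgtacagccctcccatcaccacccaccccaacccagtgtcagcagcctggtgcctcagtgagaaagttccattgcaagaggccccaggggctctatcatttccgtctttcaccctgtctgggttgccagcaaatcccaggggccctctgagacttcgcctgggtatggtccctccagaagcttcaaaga

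SELE had 2 matches, GGATATTCC from base -169 to -161 and GGGAATTCC from -137 to -129 before the transcript start. ICAM1 had 2, GGAAATTCC at -203 to -195 and GGAAATGCC at -132 to -124, the latter matching on the opposite strand. VCAM1 had GGGATTTCC at -83 to -75, and ITGAL had none. Of the other members, ICAM2 and ITGAM had 1 match each, ITGB2 and PECAM1 had none, and SELP was left out because RefSeq gives its start as incomplete. The ITGAM transcript read (XM_003124492.6) has its first base at chr3:17257526 on the minus strand. That lies inside the RefSeq gene, which begins at 17272134, so the ITGAM match is not at the gene's start. The same letters occurred in 23.2% of the 19278 protein-coding promoters of this length (280 bases). An AP-1-like motif, TGANTCA, was in 5.52% of them and in none of the 8 windows read, SELE among them. These matches describe the sequence and show no binding.

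Positions are those of the table's gene rows, in Sscrofa11.1. SELE lies at chr4:81281499-81299263 (plus strand; RefSeq starts the gene further in, at 81289061), ICAM1 at chr2:69097122-69108205 (plus), VCAM1 at chr4:117496908-117511226 (minus), ITGB2 at chr13:207512954-207544108 (minus) and ITGAL at chr3:17817011-17858057 (minus). The other 4 rows overlap other named genes, so their counts may hold reads of a neighbour. The ITGB2 and ITGAL rows each span 1 further RefSeq locus that has no gene symbol, so the same holds for them. SELP (chr4:81365740-81406203, plus) overlaps F5 on the same strand. PECAM1 (chr12:14582481-14723336, plus) overlaps DDX5 and POLG2 on the same strand and MILR1 on the other. The row named ICAM2 (chr12:14881923-14997426, plus) also spans RefSeq's ERN1, a stress sensor of the endoplasmic reticulum with no row of its own. The description given with this row is that of ERN1. RefSeq places ERN1 at 14881913-14963290 and ICAM2 at 14986636-14991639. ICAM2 and ERN1 cannot be told apart in this row, and its values may be largely those of ERN1. The row named ITGAM (chr3:17136161-17273657, minus) spans RefSeq's ITGAX and ITGAD, and ITGAX has no row of its own either.

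The groups were not sequenced alike. GS libraries held 26335584 to 67522703 counts and PD libraries 14650700 to 21820935, so depth cannot be told apart from the group. The PD lungs had also served an earlier study, the GS lungs had not, and the route of RNA extraction is not given per sample. At 0h, before any difference in perfusion, 40.6% of the 16477 genes tested differed between the groups. Lung epithelium was present in every library (9 of its 10 markers found), as was endothelium (12 of 12). At 0h the epithelial markers summed to 8371 to 11068 CPM (counts scaled to a library of fixed size) in GS and 27966 to 79188 CPM in PD, most of it SFTPC (mean 3577 and 40673 CPM). Of the 9, SFTPC (3.56 on the log2 scale) and SFTPD (1.36) were called higher in PD and SFTPB lower (-1.35). Red cell markers summed to 0.799 to 10.9 CPM and 52.1 to 240.0 CPM, most of it HBB (mean 4.54 and 136 CPM). The part of cell content in the differences of level was not tested, and these genes were named after their values had been seen. The PD pig 2 library at 12h stood apart: it was the shallowest, and its median correlation with the other 3 PD libraries at 12h was 0.847, against at least 0.891 for every other library within its own group and time. Its summed neutrophil markers (1526 CPM), red cell markers (369 CPM) and epithelial markers (94338 CPM) were the highest of the 27 libraries, and calls of members from 0h or between the groups that it changed are given with and without it.

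ICAM1, the ligand of the ITGB2 integrins on many cell types, rose in both groups. At 0h it stood at 214, 226, 162, 247 and 210 CPM in GS pigs 17, 44, 55, 77 and 9, and at 194, 214, 258 and 161 CPM in PD pigs 2, 3, 4 and 5. At 6h the same pigs had 383, 965, 767, 1289 and 723 CPM in GS, and 399, 532, 1236 and 578 CPM in PD. At 12h they had 686, 1120, 1282, 799 and 294 CPM in GS, and 802, 1370, 1238 and 1594 CPM in PD. Every lung was above its own 0h level at both times, and every library at 6h or 12h was above every library at 0h. CPM values here use library sizes scaled by TMM, and changes come from edgeR's quasi-likelihood F test with the pig as block and Benjamini-Hochberg adjustment over all genes tested. A gene was called changed from 0h where the adjusted p fell under 0.05 and the fold reached 2.

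In the GS group the log2 fold change of ICAM1 was 1.86 ± 0.30 (SE) at 6h (3.62-fold, adjusted p = 0.00127) and 1.84 ± 0.31 at 12h (3.59-fold, adjusted p = 0.00078), and both were called. In the PD group it was 1.62 ± 0.36 at 6h (3.08-fold, adjusted p = 0.122) and 2.59 ± 0.38 at 12h (6.01-fold, adjusted p = 0.0149), and only the change at 12h was called. The PD call at 12h was lost without pig 3 (adjusted p = 0.166) or pig 5 (0.25), with log2 fold changes of 2.55 and 2.33, and with only the 2 time points compared (2.57, 0.106), and without the PD pig 2 library at 12h it was 2.67 (0.00217). The 6h value in PD, which did not pass, did pass in DESeq2 (adjusted p = 0.000532), with all 27 libraries in one fit (0.0177) and without the PD pig 2 library at 12h (0.0282), at log2 fold changes of 1.63 to 1.64. In bulk tissue, a change in the number of cells of a type and a change of RNA per cell cannot be told apart.

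SELE, the inducible selectin of endothelium, was low at 0h and spread widely between lungs. At 0h it stood at 6.58, 3.19, 3.31, 3.7 and 22.7 CPM in GS pigs 17, 44, 55, 77 and 9, and at 18.2, 17.1, 1.6 and 2.39 CPM in PD pigs 2, 3, 4 and 5. At 6h it was 4.25, 16.1, 75.9, 52.2 and 28.6 CPM in GS, and 268, 67.1, 712 and 106 CPM in PD. At 12h it was 7.69, 26.7, 74.0, 43.6 and 4.76 CPM in GS, and 34.2, 277, 250.2 and 356 CPM in PD. All 4 PD lungs were above their 0h level at both times, while GS pig 17 was below its own at 6h and GS pig 9 at 12h. At 12h, 3 PD lungs were above every GS lung, and PD pig 2, the library that stood apart, was among the GS values.

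The log2 fold change of SELE in PD was 4.72 ± 1.18 at 6h (26.4-fold, adjusted p = 0.178) and 4.68 ± 1.20 at 12h (25.7-fold, adjusted p = 0.0441), so that it was called at 12h only in this fit. In GS it was 1.66 ± 0.81 at 6h and 1.63 ± 0.84 at 12h (3.16-fold and 3.09-fold, adjusted p = 0.139 at both), and neither was called unless pig 9 was left out (2.43 and 2.61, adjusted p = 0.034 and 0.0153). The PD call at 12h did not pass without pig 3 (adjusted p = 0.206), pig 4 (0.0649) or pig 5 (0.316), at log2 fold changes of 5.25, 4.44 and 3.66, nor with only the 2 time points compared (5.05, 0.139) or with no filter on low counts (4.69, 0.102). At 6h, where it did not pass, SELE in PD was called by DESeq2 (4.75, adjusted p = 1.24e-05), with only the 2 time points compared (4.84, 0.0187) and with all 27 libraries in one fit (4.69, 0.034). Without the PD pig 2 library at 12h the log2 fold change was 5.42 at 12h and 4.85 at 6h, with adjusted p of 0.00434 and 0.0175, and both were called.

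SELP, the stored selectin of endothelium and platelets, gave no call with all lungs. It ranged from 8.06 to 14.6 CPM in GS at 0h, 6.91 to 33.7 CPM at 6h and 7.76 to 33.1 CPM at 12h. In PD it was 16.3, 18.5, 1.55 and 8.44 CPM at 0h in pigs 2 to 5, 19.4, 29.3, 117 and 16.3 CPM at 6h, and 2.59, 63.7, 76.2 and 71.4 CPM at 12h. All PD lungs but pig 2 stood above every GS lung at 12h, and pig 2 stood below all of them. The log2 fold change was 0.73 ± 0.37 (adjusted p = 0.15) and 0.47 ± 0.37 (0.32) in GS at 6h and 12h, and 1.49 ± 1.03 (0.644) and 1.83 ± 1.07 (0.324) in PD. Without the PD pig 2 library at 12h the PD value at 12h was 2.57 and was called (adjusted p = 0.0301), and without GS pig 17 the GS value at 6h was 1.12 and was called (0.0294). Platelet markers, of which 7 of 8 were found, summed to 109 to 189.9 CPM in GS and 79.1 to 122 CPM in PD at 0h, and to 158 to 264 CPM and 76.7 to 139.7 CPM at 12h.

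**Figure D1:**
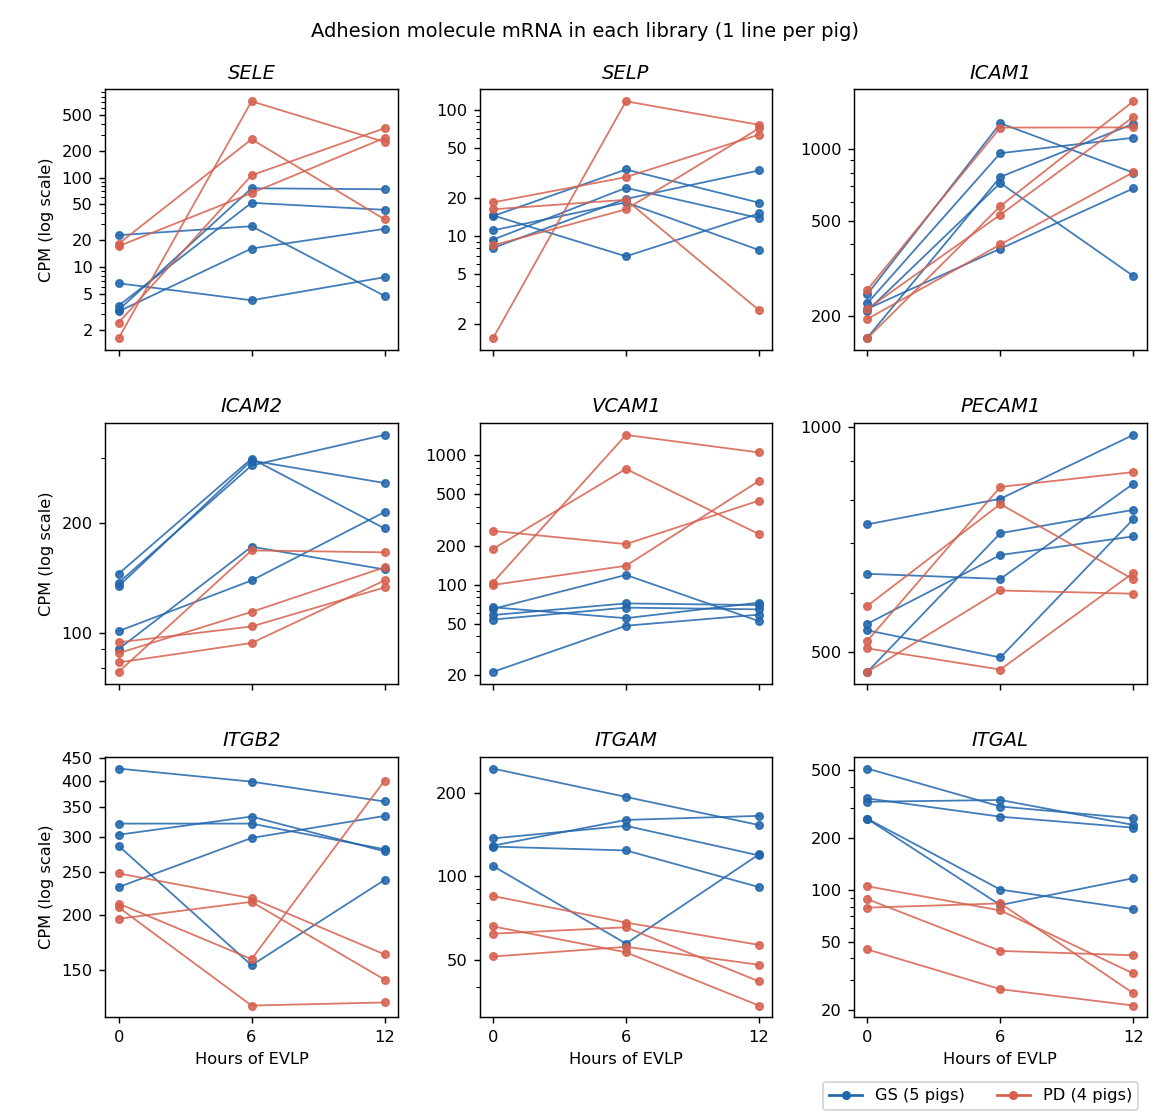
Scaled counts (CPM, from TMM-scaled library sizes) on a log axis of the 8 members and SELE at 0h, 6h and 12h of EVLP, with 1 line per pig, blue for GS (5 pigs) and red for PD (4 pigs). ICAM1 is above its 0h level in all 9 lungs, and VCAM1 lies higher in PD from 0h on. ITGAL lies lower in PD from 0h on, except that PD pig 5 (83.4 CPM) lies above GS pig 9 (81.6 CPM) at 6h. The PD pig 2 lung drops to 34.2 CPM of SELE and 2.59 CPM of SELP at 12h.

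VCAM1, the endothelial ligand of the integrin of ITGA4 and ITGB1, was the member whose level differed most between the groups at 6h and 12h. GS lungs held 66.9, 21.2, 58.3, 53.8 and 65.0 CPM at 0h in pigs 17, 44, 55, 77 and 9, 55.1, 48.2, 71.7, 66.5 and 119 CPM at 6h, and 72.7, 58.7, 69.6, 64.5 and 52.3 CPM at 12h. PD lungs held 189, 260.5, 104 and 99.6 CPM at 0h in pigs 2 to 5, 785, 206, 1437 and 140.1 CPM at 6h, and 246, 446, 1052 and 633 CPM at 12h. Every PD library was above every GS library of the same time, including at 0h. Within PD, pig 3 was lower at 6h than at 0h and the other lungs were higher, and all 4 were above 0h at 12h.

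The change of VCAM1 from 0h was not called in either group. Its log2 fold change was 0.45 ± 0.23 at 6h and 0.33 ± 0.23 at 12h in GS (adjusted p = 0.154 and 0.274), and 1.58 ± 0.70 and 1.76 ± 0.68 in PD (adjusted p = 0.52 and 0.139). At 12h in PD it was called without the pig 2 library (2.14, adjusted p = 0.0213), by DESeq2 (1.80, 0.0298) and with all 27 libraries in one fit (1.75, 0.0231). Leaving out each PD pig in turn gave 0.91 to 2.23 at 6h and 1.32 to 2.21 at 12h, without a call.

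Endothelium makes ICAM2 and PECAM1 without stimulation. The rows named for them stayed within 2-fold of their 0h level in the fits of both groups with all lungs. The ICAM2 row, which ERN1 shares, held 90.2 to 145 CPM at 0h, 139 to 299.7 CPM at 6h and 149 to 348 CPM at 12h in GS, and 78.1 to 94.1 CPM, 93.7 to 168 CPM and 133 to 166 CPM in PD. All 9 lungs were above their 0h level at both times. In GS its log2 fold changes of 0.92 ± 0.15 at 6h and 0.88 ± 0.15 at 12h passed the adjusted p (0.00145, 0.00109) and stayed under 2-fold. Without pig 17 the GS value at 6h was 1.03 and was called (adjusted p = 0.00237). In PD they were 0.45 ± 0.29 and 0.76 ± 0.29 (adjusted p = 0.631 and 0.133). PECAM1, an adhesion molecule of endothelial junctions, platelets and leukocytes, went from 469.6 to 741 CPM at 0h to 714 to 977 CPM at 12h in GS. That change, 0.44 ± 0.12, passed the adjusted p (0.0102) but not the fold, and the other 3 changes of PECAM1 lay between 0.17 and 0.38 with adjusted p of 0.309 to 0.693.

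Endothelial markers are given beside the endothelial members. The 12 summed to 2583 to 4221 CPM in GS at 0h, 1495 to 4744 CPM at 6h and 1946 to 3579 CPM at 12h, and to 1533 to 2082 CPM, 1576 to 2745 CPM and 1208 to 2505 CPM in PD. The PD sums lay below all GS sums at 0h, but the markers went both ways. At 0h, where 40.6% of all genes were called, 6 of the 12 were called lower in PD. Among them were PLVAP (-2.02) and CDH5 (-1.69), which had the highest mean CPM in GS. Called higher were 3, CLDN5 (1.67), SOX17 (0.98) and EMCN (0.66). These genes were named after their values had been seen. VCAM1 lay above all GS libraries at 0h, and the part of endothelial content in the members' values was not tested.

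Of the leukocyte chains, ITGAL fell in both groups at 12h and the others gave no call. ITGAL, which pairs with ITGB2 to form the ICAM receptor of lymphocytes, stood at 259.5, 509, 326, 341 and 259 CPM at 0h in GS pigs 17, 44, 55, 77 and 9, and at 88.4, 105, 45.0 and 78.8 CPM in PD pigs 2 to 5. At 6h it stood at 100.4, 306, 334, 267 and 81.6 CPM in GS and 44.1, 75.9, 26.4 and 83.4 CPM in PD. At 12h it stood at 77.3, 261, 239, 230.4 and 117 CPM in GS and 41.6, 32.6, 21.2 and 25.0 CPM in PD. All 9 lungs were below their 0h level at 12h, and at 6h all but GS pig 55 and PD pig 5 were. No PD library reached any GS library of the same time at 0h or 12h, while at 6h PD pig 5 lay above GS pig 9.

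The log2 fold change of ITGAL was -0.84 ± 0.21 at 6h in GS (adjusted p = 0.0111, under 2-fold) and -1.04 ± 0.21 at 12h (2.05-fold lower, adjusted p = 0.00244, called). In PD it was -0.50 ± 0.34 at 6h (adjusted p = 0.644) and -1.35 ± 0.35 at 12h (2.55-fold lower, adjusted p = 0.0442, called). Both calls at 12h sit near a threshold, and each was lost in 6 of 12 alternatives. The GS value was under 2-fold by DESeq2 (-0.98) and without pig 9 (-0.95) or pig 17 (-0.84). So it was with DESeq2 size factors (-0.98) and with only the 2 time points compared (-0.95). Without the replicate block it was -0.91 and also missed the adjusted p (0.123). The PD call was lost without pig 3 (adjusted p = 0.306), pig 4 (0.0942) or pig 5 (0.316). It was also lost with only the 2 time points compared (0.13), with no filter on low counts (0.07) and with DESeq2 size factors (0.05). Without the PD pig 2 library at 12h the PD value was -1.56 and was called (adjusted p = 0.00831). At 6h in GS, ITGAL was called without pig 55 (-1.05, adjusted p = 0.00848). Lymphocyte markers are given beside it. Of 12 tested, 1 was called lower in GS at 6h, 2 at 12h, none in PD at 6h and 2 at 12h. Of all genes tested, 11.1%, 15.7%, 0.142% and 5.98% were called in either direction. The median log2 fold changes of the 12 markers were -0.63, -0.62, -0.51 and -0.85. The sum of these markers went from 352 to 604 CPM at 0h to 189 to 422 CPM at 12h in GS, and from 309 to 476 CPM to 191 to 268 CPM in PD. Its part in the ITGAL values was not tested.

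ITGB2, the chain that ITGAL and ITGAM share, gave no call, with log2 fold changes between -0.29 and -0.10 in the 4 comparisons with 0h and adjusted p of 0.643 to 0.823. It lay at 231 to 427 CPM in GS and 196 to 248 CPM in PD at 0h, and at 239.7 to 360.0 CPM and 127 to 401 CPM at 12h. The 401 CPM were those of PD pig 2, and the other 3 PD lungs held 127 to 163 CPM. The log2 fold change in PD at 12h was -0.17 with that library and -0.64 without it (adjusted p = 0.123). ITGAM, the partner chain of neutrophils and macrophages, gave no call either, with log2 fold changes of -0.16 ± 0.20 and -0.20 ± 0.20 in GS and -0.11 ± 0.29 and -0.55 ± 0.29 in PD at 6h and 12h. All 4 PD lungs were below their 0h level at 12h. Neutrophil markers, of which 9 of 12 were found, summed to 154 to 399 CPM in GS and 635 to 1253 CPM in PD at 0h. Of these markers, S100A12 (mean 134 CPM in GS, 638 CPM in PD) and S100A8 were called higher in PD at 0h (2.29 and 3.27 on the log2 scale) and CSF3R lower (-1.36). At 0h 40.6% of all genes were called, and the median over the 8 markers tested was 0.00. From 0h none of the 8 was called, where 11.1% and 15.7% of all genes were in GS at 6h and 12h, and 0.142% and 5.98% in PD. The median log2 fold change of the 8 was -0.32 and 0.14 in GS and -0.65 and -0.76 in PD at 6h and 12h. MPO, a defining marker, was at 3 counts or fewer in every PD library and in every GS library at 6h. S100A12, S100A8, CSF3R and MPO were named after their values had been seen. The part of neutrophil content in the members' values was not tested.

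Counted over the 8 named members, 1 was called in GS at 6h, where 11.1% of all genes tested were called, and 2 at 12h, where 15.7% were. In PD, 0 of 8 were called at 6h, where 0.142% of all genes were, and 2 of 8 at 12h, where 5.98% were. At 6h in PD edgeR gave 2 members an unadjusted p under 0.05, as it did 9.41% of all genes, and DESeq2 called 1 member and 428 of the 15545 genes. The called members were ICAM1, higher, and ITGAL, lower, and in GS at 6h ICAM1 alone. The median log2 fold change of the 8 was 0.31 and 0.39 in GS at 6h and 12h and 0.40 and 0.57 in PD, beside -0.05, -0.08, -0.02 and -0.05 over all genes tested.

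The PD counts moved with single lungs, over all genes as over the members. With pig 3 or pig 5 left out no member was called at 12h, and edgeR called none of the 15603 and 15512 genes tested (2091 and 1878 at an unadjusted p under 0.05). With the pig 2 library at 12h left out 4 members were called, where 26.2% of all genes were.

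**Figure D2:**
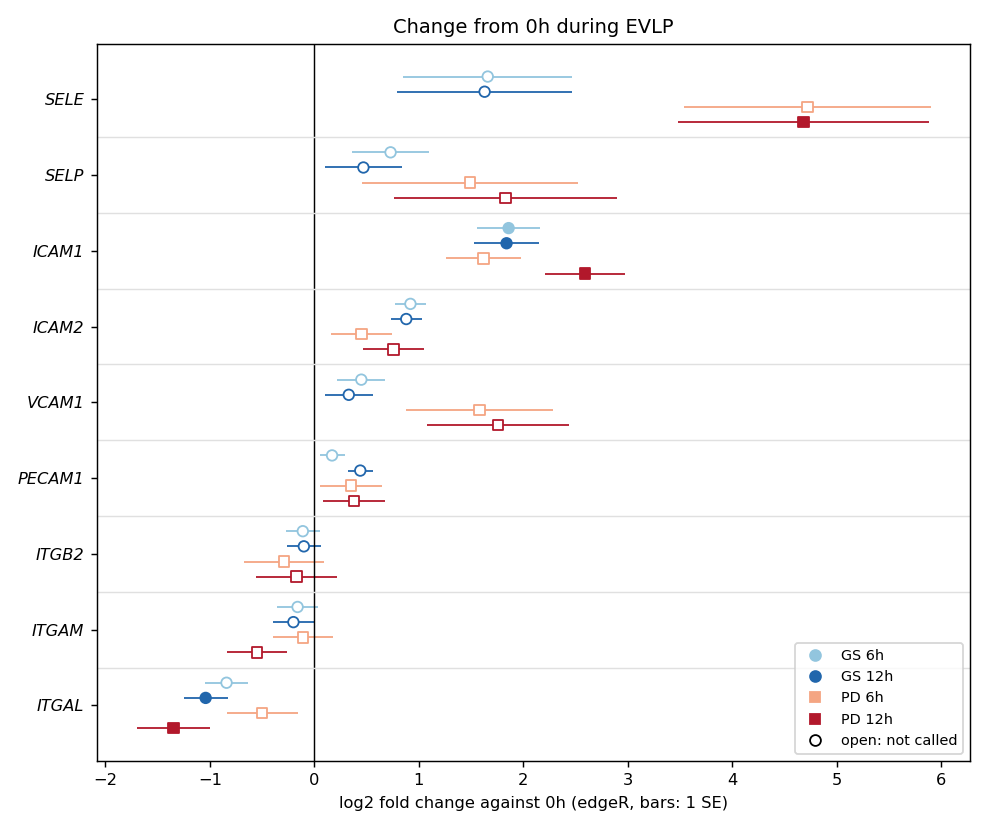
Log2 fold change from 0h of the 8 members and SELE in GS (circles) and PD (squares) at 6h and 12h. Bars are 1 SE derived from edgeR's F test. Filled marks passed both thresholds (adjusted p of 0.05, 2-fold): ICAM1 in GS at both times, and ICAM1, SELE (4.68) and ITGAL in PD at 12h, with ITGAL in GS at 12h.

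Between 6h and 12h no gene was called in either group by edgeR fitted within the group (0% of the genes tested, 0 of 8 members in each). An unadjusted p under 0.05 was reached by 882 GS genes and 1562 PD genes. DESeq2 called 2 genes in GS and 224 in PD, and edgeR with all 27 libraries in one fit called 0 of 17884 genes in GS and 492 in PD. None of those called was a member. The members with an unadjusted p under 0.05 were PECAM1 in GS (0.28 ± 0.12) and ICAM1 (0.96 ± 0.36, higher in 4 of 4 lungs) and ITGAL (-0.85 ± 0.35, lower in 4 of 4 lungs) in PD. Adjusted p for these was 1.0, 0.43 and 0.46.

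Whether dialysis changed the response was asked of the change within each lung, since the groups differed at 0h. The change of SELE from 0h was larger in PD by 3.04 ± 1.46 on the log2 scale at 6h and by 3.02 ± 1.48 at 12h, the group-by-time interaction of edgeR, with adjusted p of 0.783 and 0.838 (unadjusted 0.0512 and 0.0554). For VCAM1 it was 1.10 ± 0.70 and 1.39 ± 0.69 (adjusted p = 0.783 and 0.843), and for SELP 0.73 ± 1.07 and 1.31 ± 1.09 (0.882 and 0.925). ICAM1 gave -0.25 ± 0.47 and 0.71 ± 0.47 (0.919 and 0.918), and the other 5 members lay between -0.49 and 0.33 with adjusted p of at least 0.783. None of the 8 members was called at either time, as was true of 0% of the 17884 genes tested, with 1046 and 1069 genes and none of the 8 members at an unadjusted p under 0.05. DESeq2 called 7 and 15 genes and no member. Without PD pig 2, edgeR called 254 of 18568 genes at 6h (1.37%) and 153 at 12h (0.824%), again with none of the 8 members or SELE. The differences for SELE were then 3.65 and 4.01 (adjusted p = 0.281 and 0.13), and at 12h those for SELP and VCAM1 were 2.38 and 1.68 (0.119 and 0.139). Leaving out each pig in turn took the SELE difference from 1.91 to 3.97 at 6h and from 2.02 to 4.01 at 12h. For VCAM1 it ran from 0.40 to 1.76 and from 0.98 to 1.89, and for SELP at 12h from 0.66 to 2.38, all without a call. The SE of the differences with all lungs ran from 0.27 to 1.48.

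The change in each lung shows the same overlap. The log2 ratio of SELE at 12h to 0h was -2.25, 0.22, 3.06, 4.48 and 3.56 in GS pigs 9, 17, 44, 55 and 77, and 0.91, 4.02, 7.26 and 7.21 in PD pigs 2 to 5. The mean difference was 3.03, and the exact permutation test over all ways to divide the 9 lungs, two-sided, gave p = 0.143, where the smallest it can give is 0.00794. For VCAM1 the ratios at 12h were -0.32, 0.12, 1.47, 0.26 and 0.26 in GS and 0.38, 0.78, 3.34 and 2.67 in PD (mean difference 1.43, exact permutation p = 0.0794, adjusted over all genes 0.888). The ratios of the groups overlapped for all 8 members and SELE at both times, as they did for most genes: the share of all genes without overlap was 3.12% at 6h and 2.09% at 12h.

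**Figure D3:**
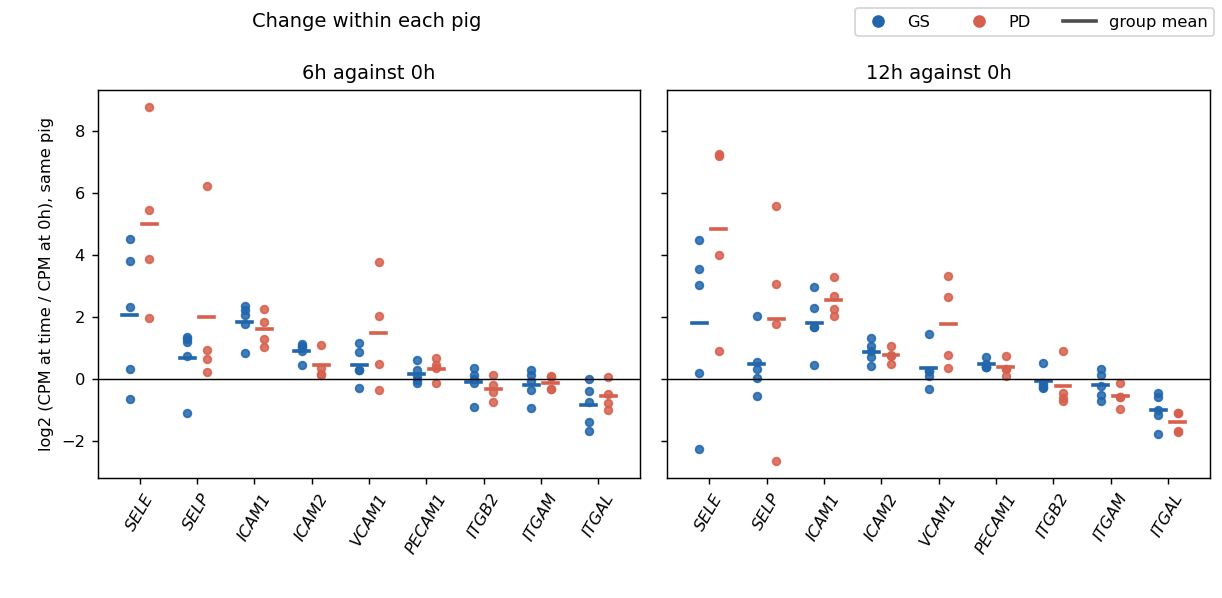
Log2 ratio of CPM at 6h (left) and 12h (right) to CPM at 0h of the same pig, for GS (blue, 5 pigs) and PD (red, 4 pigs), with points for pigs and bars for group means. SELE, SELP and VCAM1 have higher means in PD at both times, and the pigs of the 2 groups overlap for every gene shown.

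Levels, unlike changes, did separate the groups for some members, at 0h as well as later. VCAM1 was higher in PD by 1.66 ± 0.36 on the log2 scale at 0h (3.17-fold, adjusted p = 0.00337), 3.14 ± 0.59 at 6h (8.8-fold, 0.0034) and 3.23 ± 0.39 at 12h (9.38-fold, 0.00108). ITGAL was lower in PD by 4.15-fold at 0h (-2.05 ± 0.29, adjusted p = 0.000239), 3.79-fold at 6h (-1.92 ± 0.48, 0.013) and 6.06-fold at 12h (-2.60 ± 0.43, 0.00265). The ITGAM row was lower in PD as well, by -1.13 ± 0.26 at 0h, -1.18 ± 0.32 at 6h and -1.51 ± 0.29 at 12h (adjusted p = 0.00451, 0.0194 and 0.00514). Monocyte and macrophage markers are given beside it. Of 12 tested, 4 were called lower in PD at 0h, 5 at 6h and 2 at 12h, and none higher, where 40.6%, 24.3% and 20.1% of all genes were called in either direction. Their medians were -0.46, -0.97 and -0.54, and at 0h CD68 (-1.89) and CSF1R (-1.63) were lower while MRC1 (0.62) and MSR1 (0.27) had positive values without a call (named after their values had been seen). Their sum was 3794 to 7162 CPM in GS and 2442 to 3228 CPM in PD at 0h, and its part in the ITGAM values was not tested.

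SELE differed by 0.35 ± 0.77 at 0h (adjusted p = 0.747), which did not pass, and was higher in PD by 3.01 ± 0.77 at 6h (8.08-fold, 0.0145) and 2.88 ± 0.79 at 12h (7.36-fold, 0.0248). The call at 6h was lost without PD pig 4 (2.06, adjusted p = 0.0535) and with no filter on low counts (2.95, 0.0793), and the call at 12h without GS pig 44 (2.79, 0.0651), GS pig 77 (3.02, 0.0502) or PD pig 5 (2.59, 0.0661). The ICAM2 row was called lower in PD by edgeR at 6h (by 2.0-fold, adjusted p = 0.0323), and values for it at 0h and 12h were -0.46 ± 0.19 and -0.64 ± 0.29. The 6h call of that row was lost without GS pig 44, 55 or 77 or PD pig 2, 3 or 5 (log2 -0.97 to -0.89, adjusted p = 0.0664 to 0.0958). The 0h value passed in DESeq2 (adjusted p = 0.043) and without GS pig 9 or 17 (0.0319 and 0.0436). With all lungs ICAM1, SELP, PECAM1 and ITGB2 were not called by edgeR at any time, and ICAM1 at 0h differed by 0.01 ± 0.20. Without PD pig 2, SELP was higher (2.00, adjusted p = 0.00346) and ITGB2 lower (-1.04, 0.00798) in PD at 12h, and both were called, while VCAM1 (3.49), SELE (3.24), ITGAM (-1.40) and ITGAL (-2.81) kept their calls at 12h. ITGB2 was also called lower at 0h by DESeq2 (-0.50, adjusted p = 0.0426) and without GS pig 55 (-0.61, 0.0447), and at 6h without GS pig 9 (-0.90, 0.0339). By count, 3 of 8 members were called at 0h, where 40.6% of all genes were, 4 of 8 at 6h, where 24.3% were, and 3 of 8 at 12h, where 20.1% were. Without PD pig 2, the 6h count was 1, where 10.7% of all genes were called, and the 12h count 5, where 29.4% were. At 6h VCAM1 was then the one called, and ITGAL (-1.79) and ITGAM (-1.10) were not (adjusted p = 0.0617 and 0.0657). Sequencing depth and any other difference between the sets of libraries go with the group in these comparisons and cannot be told apart from it.

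**Figure D4:**
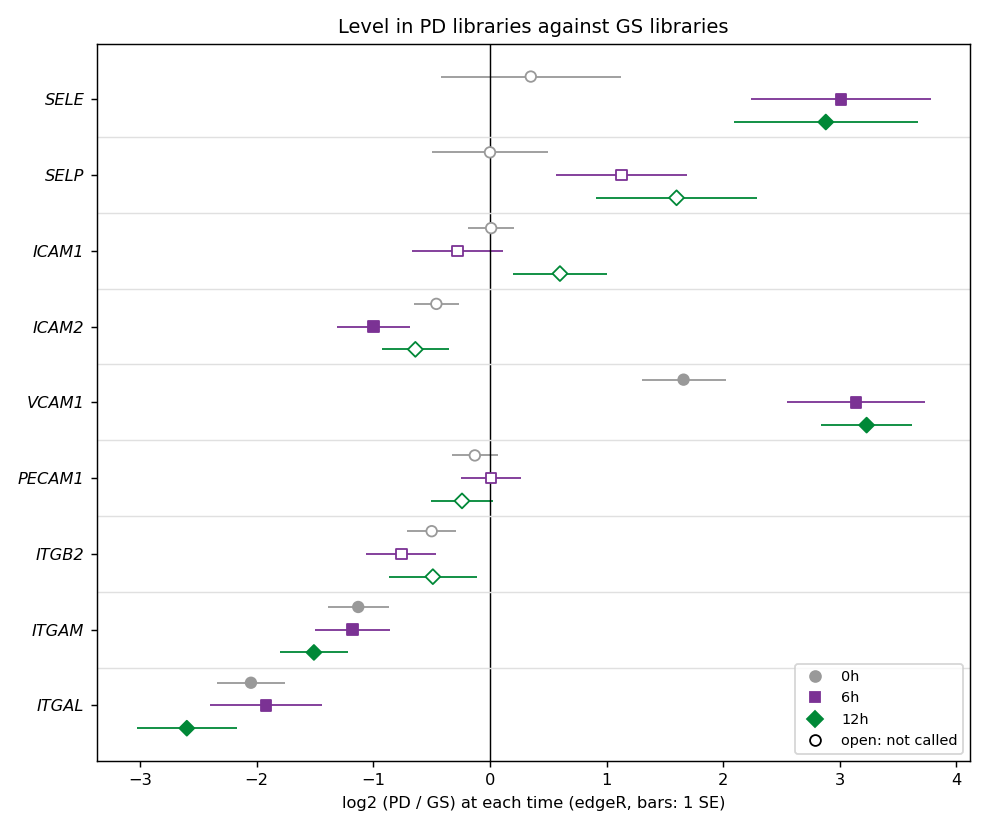
Log2 ratio of the PD level to the GS level of the 8 members and SELE at 0h, 6h and 12h. Bars are 1 SE derived from edgeR's F test, and filled marks have an adjusted p under 0.05. VCAM1 (1.66) is already higher and ITGAL (-2.05) and ITGAM (-1.13) already lower in PD at 0h. SELE is called higher at 6h and 12h only, and the libraries of the groups overlap for it at both times.

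The order of the 6 group means was read for each member. VCAM1 ran from GS at 0h (5.62 ± 0.69 log2 CPM, SD), 12h and 6h up to PD at 0h, 6h and 12h (9.02 ± 0.88). ITGAL ran from PD at 12h (4.87 ± 0.43), 6h and 0h up to GS at 12h, 6h and 0h (8.36 ± 0.40), and ITGAM had the same order. SELE had both 0h groups lowest, then GS and then PD, highest in PD at 6h (7.59 ± 1.51). That last place changed when PD libraries were left out. Without the PD pig 2 library at 12h, SELE in PD was higher at 12h than at 6h by 0.57. It was higher at 12h by 0.33 without all of PD pig 2 and by 0.81 without PD pig 4, each without a call. Of the 5 neighbouring pairs in each order, the libraries overlapped in all 5 for SELE and for 6 of the 8 members. They were apart in 1 pair for ICAM1, between GS at 0h and PD at 6h, and in 1 for ITGAM, between PD at 0h and GS at 12h.

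The members were also compared with each other across libraries. With each group's mean removed, log2 CPM over the 27 libraries correlated at r = 0.79 for SELE and ICAM1, 0.77 for SELE and VCAM1 and 0.56 for ICAM1 and VCAM1, the 3 inducible genes. SELE and SELP correlated at 0.80, and ICAM1 and the ICAM2 row at 0.88. ITGAM and ITGAL correlated at 0.75. VCAM1 ran against ITGB2 (-0.68) and ITGAL (-0.62). These values are descriptions, since the 27 libraries come from 9 lungs and share the course of time.

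The genes whose levels were most like each member's, by the same measure among all genes with a symbol, were as follows. For SELE they were EDN1, which encodes the vasoconstrictor endothelin, PMAIP1 and REL, an NF-kB subunit (r = 0.94, 0.94 and 0.93). For VCAM1 they were IFIT5, TNIP3 and CD274, the ligand of PD-1 (0.87 each). ICAM1 was closest to SYS1, TAF5L and PPRC1 (0.96 each), ICAM2 to DBNDD2, PPRC1 and TLNRD1 (0.93 to 0.94), and SELP to ELF1, ETS1 and NSD3 (0.90 to 0.92). Within the groups, the SELP values were 0.96 to 0.98 in PD and 0.48 to 0.63 in GS, and the VCAM1 values 0.91 to 0.92 in PD and 0.65 to 0.73 in GS. PECAM1 was closest to PEAR1, STAC2 and EEF2 (0.77 to 0.81), ITGB2 to BAD, GAA and ARPC1B (0.91 each), ITGAM to MMP8, RAP1GAP2 and TSHR (0.78 to 0.82), and ITGAL to PARP1, WAS and FAM117A (0.92 to 0.94). MMP8 is a collagenase of neutrophil granules, and WAS a regulator of actin in blood cells.

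Other genes of the adhesion cascade were read as 4 lists. Of 15 genes for selectins, their ligands and the enzymes that make those ligands, 13 were tested. In GS 2 of these were called lower at 6h, and 2 lower and 1 higher at 12h. In PD none was called at 6h and 1 lower at 12h. Of all genes tested, 11.1% and 15.7% were called in GS at 6h and 12h, and 0.142% and 5.98% in PD. CD44, a hyaluronan receptor, had the highest mean change and was called in GS at 12h (1.07), and GCNT1, which builds the sugar core of selectin ligands, had the lowest and fell in GS (-1.31 at 6h, -1.20 at 12h) and in PD at 12h (-1.77).

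Of 11 tested genes for other leukocyte integrins and their activators, 2 were called lower in GS at each time. In PD none was called at 6h and 2 lower at 12h, and none was called higher in either group. Over all genes, 11.1% and 15.7% were called in GS at 6h and 12h, and 0.142% and 5.98% in PD. ITGA4, a chain of the VCAM1 receptor, had the lowest mean change and fell in GS (-1.25 and -1.41) and in PD at 12h (-2.01). ITGB1, with the highest mean, was at 0.19 to 0.76 without a call.

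Of 12 tested genes for other ICAMs and junction molecules, 1 was called higher and 1 lower in GS at 6h, and 2 higher and 1 lower at 12h. In PD none was called at 6h and 1 lower at 12h. The shares of all genes called were 11.1% and 15.7% in GS and 0.142% and 5.98% in PD. ICAM4, a red cell and integrin-binding ICAM, rose in GS (2.54 and 2.82) and was at 1.70 and 2.64 in PD without a call. CD226, a receptor of lymphocytes and platelets, fell in GS (-1.78 and -1.91) and in PD at 12h (-2.63). The junction molecule CDH5, at 0.02 to 0.75, gave no call.

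Of 8 sheddases and inhibitors of adhesion, 2 were called higher in GS at 6h, 1 at 12h, none in PD at 6h and 1 in PD at 12h. None was called lower. Among all genes, 11.1% and 15.7% were called in GS at 6h and 12h, and 0.142% and 5.98% in PD. PTX3, a pentraxin that binds SELP, rose in GS (1.64 and 2.31) and in PD at 12h (3.39) and was at 1.69 in PD at 6h. ADAM10, with the lowest mean change, lay between -0.07 and 0.45. Median log2 fold changes in GS at 12h and PD at 12h were -0.17 and -0.21 for the selectin list, -0.24 and -0.45 for the integrin list, 0.15 and 0.16 for the ICAM list and 0.65 and 0.96 for the inhibitor list, beside -0.08 and -0.05 over all genes. CDH5 was named after its values had been seen.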

How the data were processed

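The values are whole-number read counts per Ensembl gene in 27 libraries, used as the authors deposited them. Reads from stranded poly(A) libraries were trimmed with cutadapt 1.15 and aligned with TopHat2 2.0.14 to Sscrofa11.1, and the submitters' notes name featureCounts and Subread 1.6.0. The strand counted and the treatment of reads with several places are not given in the sources used here, so overlapping genes may share reads.

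The 3 times of a group were fitted together in edgeR 4.0.16 (R 4.3.3), after filterByExpr and TMM, by two-sided robust quasi-likelihood F tests with the pig as block. The SE of a log2 fold change was derived from that test, as its absolute value divided by the square root of F. Log2 CPM had a prior count of 0.5, and the floor of 3 counts came to 0.104 CPM or less in GS and 0.324 CPM or less in PD. Levels were compared between groups at each time, and changes by an interaction over all libraries. Alternatives were DESeq2 1.42.0, its size factors alone, low counts kept, no block, 2 time points only, all libraries together, no fold threshold and each pig left out, with 1 added after seeing the data (without the PD pig 2 library at 12h). The p-values of levels at 1 time measure the spread between lungs. With the pig as block, the p-values of changes measure how changes within lungs vary from lung to lung. Fits without the block treat the libraries of a pig as independent, so their p-values measure neither. Libraries of 1 pig are paired by the labels. Their residuals correlated at a mean r of 0.51 in GS and 0.11 in PD, and at -0.15 and -0.12 between pigs. The scripts were tested on simulated counts, and no pair of libraries was a duplicate (chi-square per degree of freedom at least 34.8 for any 2 libraries).

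The members, the lists and the markers were chosen with earlier results of these data known. The genes named were all members, the 3 most like each member, and in each list those with the highest and lowest mean change, and others are marked. Promoters were read from RefSeq's Sscrofa11.1 assembly and annotation. Perfusate measurements were not used here.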

Additional observations from a re-analysis of the deposited data

Results flagged for a closer look

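Within groups of 4 or 5 lungs, 1 lung was tested for standing far from the others on the log2 scale, over 54 groups of libraries, of which chance would pick about 2.7 at a share of 0.05. It did so 5 times. SELE in PD at 12h was 34.2 CPM in pig 2, against 250.2 to 356 CPM in the other 3 lungs. SELP in PD at 12h was 2.59 CPM in the same library, against 63.7 to 76.2 CPM. VCAM1 in GS at 0h was 21.2 CPM in pig 44, against 53.8 to 66.9 CPM. ITGAM in GS at 0h was 244 CPM in that same library, against 109 to 137 CPM. PECAM1 in PD at 12h was 871 CPM in pig 3, against 598 to 638 CPM. The part of depth and of cell content in these values was not tested.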

How the results depend on the processing

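Counts are of the 8 named members called. In GS, 1 was called at 6h and 3 without the fold threshold, where the count over all genes went from 2057 to 5295. With a pig left out 1 to 3 were called, where 7.2% to 11.4% of all genes were. At 12h, 2 were called, and 4 without the fold threshold, where all genes went from 2911 to 7136. Without the replicate block, with DESeq2 and with its size factors 1 was called, where 1896, 3058 and 2878 genes were. With 2 time points only 1 was called, where 2501 genes were. With a pig left out 1 to 2 were called, where 11.6% to 18.8% of all genes were. Wherever 1 was called, the member that went was ITGAL. In PD, 0 were called at 6h, where 22 of 15545 genes were. With DESeq2 1 was called, where 428 genes were, and with all 27 libraries 1, where 479 of 17884 were. Without the PD pig 2 library at 12h 1 was called, where 252 of 15875 genes were. At 12h, 2 were called, where 930 of 15545 genes were. With DESeq2 size factors 1 was called (953 genes), and with no filter on low counts 1 (901 of 26440 genes). With 2 time points only 0 were called, where 4 of 14907 genes were. Without the PD pig 2 library 4 were called (26.2% of all genes), and with a pig left out 0 to 3 (0% to 24.4%). For levels, DESeq2 called 5 members at 0h (and 7518 of 16477 genes) in place of 3, adding ICAM2 and ITGB2. Leaving out a pig gave 1 to 5 members at 6h, where 10.7% to 27.4% of all genes were called. At 12h it gave 3 to 5, where 12.5% to 29.4% were. ICAM1 in GS kept its call at both times in all 12 alternatives each. The replicate block, by pig, changed no other call of a member from 0h but that of SELE in PD at 6h, which passed without the block (4.89, adjusted p = 0.044). Values near 0 changed sign. For 12h against 6h in GS, ICAM1 went from -0.01 to 0.01 with DESeq2, its size factors or all 27 libraries (-0.24 to 0.26 with a pig left out), and ITGB2 from 0.01 to -0.03 without the block (-0.11 to 0.08). With a pig left out, SELE ran from -0.29 to 0.17, ICAM2 from -0.19 to 0.09, VCAM1 from -0.25 to 0.15 and ITGAM from -0.27 to 0.08. For 12h against 6h in PD, SELE was 0.57, PECAM1 -0.03 and ITGB2 -0.33 without the PD pig 2 library at 12h, and VCAM1 -0.12 without the block. With a pig left out they ran from -0.92 to 0.81, -0.09 to 0.16, -0.35 to 0.38 and -0.47 to 0.78, and SELP from -0.36 to 0.86. In GS at 6h, leaving out a pig took ITGB2 from -0.21 to 0.11 and ITGAM from -0.27 to 0.02, and in PD at 12h ITGB2 from -0.63 to 0.05. For the difference in change, ITGAM at 6h was 0.00 and ITGB2 at 12h 0.02 without the block. With a pig left out, SELP at 6h ran from -0.22 to 1.53, ITGAM at 6h from -0.11 to 0.14, PECAM1 at 12h from -0.17 to 0.00 and ITGB2 at 12h from -0.53 to 0.10. For levels at 0h, ICAM1 was -0.07 with no filter and -0.04 with all 27 libraries (-0.12 to 0.12 with a pig left out), SELE ran from -0.13 to 1.27 and SELP from -0.35 to 0.37. PECAM1 at 6h was -0.04 with no filter (-0.10 to 0.16). The causes, the lower depth of the PD libraries among them, were not tested.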
